A study of Mus musculus with 30 samples.

Results

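The genes described here had more signal in the cerebral cortex, the cerebellum and the whole eye of the adult mouse than in 12 other tissues. They were chosen from the deposited value table, in which the 2 arrays of each tissue were averaged. For each probe the gap was the lowest of the cortex, cerebellum and eye means minus the highest mean of the other 12 tissues. The 100 probes with the largest gap were taken among the 5622 of 25030 probes that could be given a gene symbol, with the eye allowed to fall no more than 0.3 (log10) under the lower brain region and with 2 symbols left out by name. Since 714 of the 846 probes with a gap at least as large as that of member 100 had no symbol, the 100 members are the named part of a larger set. The names come from gene lists of the study, and 60 of the 100 members carry a RIKEN clone name.

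The tissues came from male C57BL/6 mice that were 28 weeks old by the sample labels, while the study's methods give another age. The labels give no transgene and no treatment. Each of 15 tissues had 2 arrays: brain cortex, cerebellum and eyes, the hollow organs stomach, bladder, small and large intestine, and also skin, fat, bone, muscle, lung, heart, liver and kidney. The Agilent oligonucleotide arrays carried the tissue RNA in Cy3 and, in Cy5, a common reference of RNA pooled from 11 cultured mouse cell lines and mixed with embryonic stem cell RNA. The series text gives a single replication for bone and fat and different animals for the other tissues, while the study's methods give different animals without that exception. The spread between the bone arrays and between the fat arrays may therefore be technical.

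Neurons of the brain and of the retina share the machinery for synaptic signalling, long-range axonal transport and a neuron-specific programme of RNA processing. In that programme, microRNAs processed from long host transcripts repress non-neuronal messages, and splicing factors of the SRRM family promote the inclusion of very short neuronal exons. The eye as dissected here is a mixed organ that holds retina, lens, cornea and attached muscle, so a whole-eye value averages over cells of many kinds. In bulk RNA, fewer cells of a type and less RNA per cell cannot be told apart.

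The promoters of 4 members are shown because these genes stand for the roles described below: Srrm3 and Srrm4 for neuronal splicing, Unc80 for a sodium leak channel complex and Kif1a for axonal transport. Each window spans 300 bases around a RefSeq transcription start in build GRCm38.p6, read 5′ to 3′ on the strand of the gene, and capitals mark every CG dinucleotide. Srrm3 lies at chr5:135817856-135818155 on the + strand, Srrm4 at chr5:116591768-116592067 on the - strand, Unc80 at chr1:66467684-66467983 on the + strand and the upstream of 2 Kif1a windows at chr1:93101825-93102124 on the - strand.
Srrm3: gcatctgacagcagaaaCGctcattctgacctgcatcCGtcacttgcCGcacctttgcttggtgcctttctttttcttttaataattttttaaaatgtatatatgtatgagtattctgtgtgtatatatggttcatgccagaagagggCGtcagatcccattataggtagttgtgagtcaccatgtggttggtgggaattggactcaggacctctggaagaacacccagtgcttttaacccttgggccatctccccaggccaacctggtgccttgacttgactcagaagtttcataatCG
Srrm4: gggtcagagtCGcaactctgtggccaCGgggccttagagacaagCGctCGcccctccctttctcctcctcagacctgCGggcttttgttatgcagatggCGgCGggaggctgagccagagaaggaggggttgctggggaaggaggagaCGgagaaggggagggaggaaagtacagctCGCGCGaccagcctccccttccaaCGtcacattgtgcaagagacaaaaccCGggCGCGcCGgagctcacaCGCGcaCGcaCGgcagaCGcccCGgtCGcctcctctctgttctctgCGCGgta
Unc80: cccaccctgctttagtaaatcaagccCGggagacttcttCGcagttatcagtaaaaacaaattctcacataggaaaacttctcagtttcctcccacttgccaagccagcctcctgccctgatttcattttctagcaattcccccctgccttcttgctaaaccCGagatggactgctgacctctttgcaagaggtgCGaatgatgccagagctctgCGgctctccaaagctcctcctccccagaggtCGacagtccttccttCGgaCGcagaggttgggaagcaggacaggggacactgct
Kif1a: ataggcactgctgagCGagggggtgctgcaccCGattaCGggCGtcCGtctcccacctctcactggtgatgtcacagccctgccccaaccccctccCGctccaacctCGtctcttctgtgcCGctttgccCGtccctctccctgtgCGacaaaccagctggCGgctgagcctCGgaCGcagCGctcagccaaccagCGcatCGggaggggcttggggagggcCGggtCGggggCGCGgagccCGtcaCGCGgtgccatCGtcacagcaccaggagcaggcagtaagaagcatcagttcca
The Srrm4 window held 25 CG dinucleotides and that of Kif1a 24, against 8 in Unc80 and 5 in Srrm3, while the other Kif1a window, at chr1:93082431-93082730, held 1. A window was found for 66 of the 87 members with an unambiguous current symbol. Where a gene had several windows, the highest ratio and GC content were used. Over the 57 protein-coding members the median observed-to-expected CG ratio was 0.623, beside 0.61 over all 17492 protein-coding genes with a window. A ratio of at least 0.6 together with a GC content of at least 50% was met by 30 of those 57 members, or 52.63%, beside 48.47% of all protein-coding genes. The letters TATAAA on either strand occurred in 3 of the 57 members (Bbs4, Kifbp and Vwc2l), or 5.26%, beside 14.8% of protein-coding genes. The component sequences TTCAGCACC and GGACAGCGC of the REST element, which silences neuronal genes outside the nervous system, were searched on both strands. The former was found in 1 member (Tmem114) and in 0.48% of protein-coding genes, and the latter in 0 members and in 0.629% of them.

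All values below are log2(Cy3/Cy5) after normexp background correction and loess normalization, so 0 means equal signal in the tissue and in the reference. A probe that was dim in both channels also lies near 0, and levels were not compared between probes. A probe counted as detected where the scanner software called its Cy3 signal well above background. The median Cy3 signal per array ranged from 85.7 to 175 scanner units, and 2 arrays a tissue limit the precision of every mean. Of the 100 members, 93 were detected on all 6 brain and eye arrays. The second cortex array detected fewer probes than the first (64.3% against 78.3% of the table), and 6 of the members were missed on it. The replicate correlation over the members was at least 0.98 in cortex, cerebellum and eyes, and was lowest in fat (0.55), bone (0.71) and large intestine (0.81). The second fat and second bone arrays, which shared a slide, also had the narrowest spread of log2 ratios over all tested probes (SD 1.05 and 1.00, against 1.24 to 1.67 on the other 28 arrays). The second bone array was the highest of the 24 other arrays for 6 members, and its part in those values was not tested.

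The labels of cortex, cerebellum and eyes were checked against marker genes. Neuron markers were detected on both arrays for 7 of 7 genes in cortex and in cerebellum and for 6 of 7 in eyes, with median log2 ratios of 2.82, 2.67 and 1.35. The 5 markers of astrocytes and other glia were detected in all 3 of these tissues. Of the neuron markers 1 (Kif1a) and of the glial markers 2 (Tnr and St18) are themselves members, so the rule fixed that they are high there. Photoreceptor markers were detected for 6 of 6 genes in eyes with a median of 5.28, lens markers for 6 of 7 with a median of 4.38 and skeletal muscle markers for 6 of 6 with a median of 1.80. In cortex and cerebellum the photoreceptor medians were 0.17 and 0.11, with 4 of 6 genes detected in each. The part of these other cell types in the eye values of the members was not tested.

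The median member lay 2.26 higher in the neural tissues (mean of cortex, cerebellum and eyes) than in the other 12, with quartiles of 1.52 and 3.24 and a range of 0.26 to 7.17. Of the 100 members, 58 differed by at least 2, 18 by at least 4 and 14 by less than 1. These values restate the rule that chose the members and are given without a test. For 87 members all 6 neural arrays lay above all 24 other arrays, beside 4.91% of all 21019 probes tested, and nothing is read from this contrast because the rule used it. The count was 91 without the fat arrays and 95 without the fat, bone and large intestine arrays. In the same contrast 14.4% of all probes were called higher in the neural tissues.

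**Figure D1:**
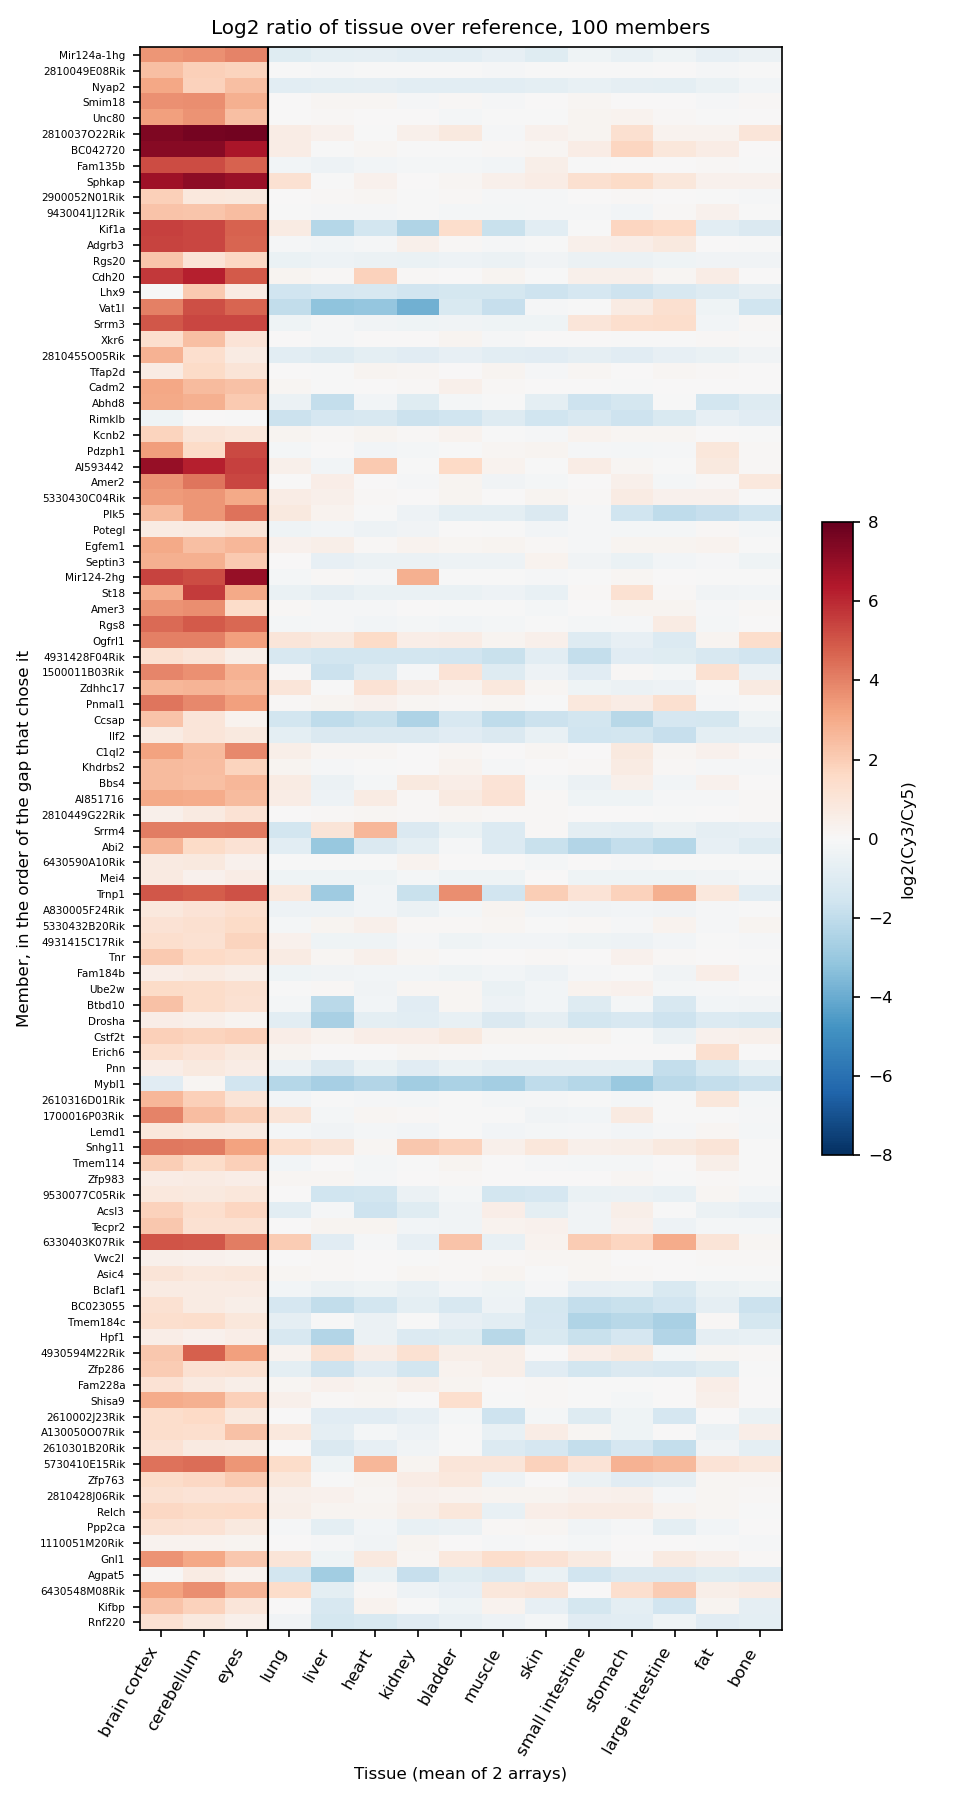
Mean log2(Cy3/Cy5) of the 2 arrays of each tissue (columns) for the 100 members (rows), in the order of the gap that chose them, red for more and blue for less signal than the reference. In 97 of the 100 rows the lowest of cortex, cerebellum and eyes lies above the highest of the other 12 columns, and the other 12 columns range from blue to pale red.

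The label of neural genes fitted the members unevenly. On the 24 arrays of the other tissues, 9 members were never detected, 35 were detected on every array and 56 on some. The 35 included genes that most cells use, such as Ilf2, Pnn, Bclaf1, Drosha (listed as Rnasen) and Ppp2ca, which were higher in brain and eye but not restricted to them. Detection in the other tissues ran from 40 of 100 members in liver to 61 in stomach, where 57% and 66.7% of all probes of the value table were detected. The tissue next below the neural 3 also varied: it was fat for 13 members, bladder, skin or stomach for 11 each and small intestine for 1.

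**Figure D2:**
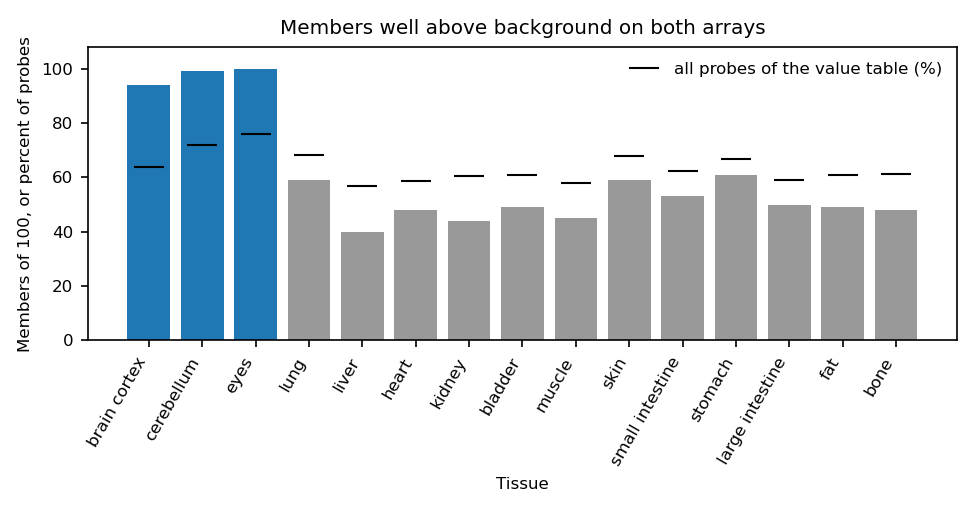
Bars give the number of the 100 members well above background on both arrays of a tissue, blue for cortex, cerebellum and eyes and grey for the other 12, and black ticks give the percent of all probes of the value table that met the same criterion. The members reach 94, 99 and 100 in the neural tissues and 40 to 61 elsewhere.

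At the limit of the rule the values were shallow. The last 2 members inside were Kifbp (2510003E04Rik), a protein that binds kinesins, with a gap of 0.1455 (log10), and Rnf220 (4931406I20Rik), a ubiquitin ligase, with 0.1418. The first 2 probes outside were 2810001G20Rik at 0.1402 and 4930535I16Rik at 0.1391.

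Among the 12 members with the largest gap, 2810037O22Rik, named here only by its clone, lay farthest from the other tissues. It measured 7.61 and 7.31 in cortex, 7.60 and 7.76 in cerebellum and 7.61 and 7.85 in eyes, while the other 24 arrays ran from -0.12 to 1.48 with a median of 0.37. BC042720 showed nearly the same shape, with 6.35 to 7.55 on the neural arrays and at most 1.71 elsewhere, on a stomach array. Sphkap, which anchors protein kinase A, measured 6.93 and 6.68 in cortex, 7.21 and 7.05 in cerebellum and 6.90 and 6.96 in eyes. Its other arrays ran from -0.03 to 1.74 with a median of 0.44, so the groups were far apart and the neural tissues nearly level. Fam135b (1700010C24Rik) lay between 4.51 and 5.35 on the neural arrays and reached at most 0.68 in skin.

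Of the 12 members, 4 were not well above background on any of the 24 other arrays, so their difference is set against arrays at background. A fold was taken from the Cy3 channel alone, as the mean normalized level of the neural tissues against that of the other tissues. On each other array the higher of the probe's own level and the lowest level among detected probes was used. This floor is a permissive one, so the fold is an estimate and no strict lower bound. Since the dyes were not swapped, it is also open to dye bias. Smim18 (2700090O03Rik), a small membrane protein, measured 3.89 and 3.39 in cortex, 3.74 and 3.66 in cerebellum and 2.82 ± 0.26 (SD, n = 2) in eyes. Unc80 (C030018G13Rik), a subunit of the NALCN sodium leak channel, measured 3.70 and 2.87, 3.56 and 3.61, and 1.88 and 2.91 in the same order. For these 2 genes the value so obtained exceeded the fold of the log2 ratios, so it is not given. The long non-coding transcripts 2810049E08Rik and 2900052N01Rik were 3.41-fold and 1.92-fold higher with this floor. The cortex arrays of 2810049E08Rik were 3.23 and 1.59, wider apart than its cerebellum (1.95 and 1.88) and eye arrays (1.47 and 2.15). The other 5 members never detected outside the neural tissues were 1.35-fold to 2.58-fold higher with the same floor. Another long non-coding member of the 12, 9430041J12Rik, lay between 1.93 and 2.73 on the neural arrays and reached 0.64 on a fat array.

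**Figure D3:**
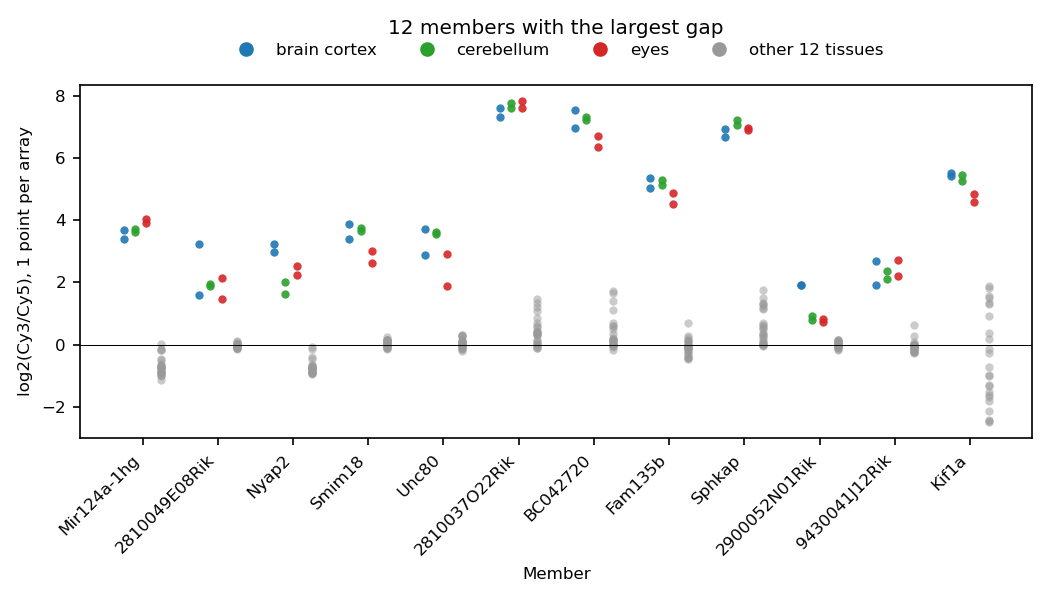
Log2(Cy3/Cy5) of the 12 members with the largest gap, 1 point per array, for cortex (blue), cerebellum (green), eyes (red) and the other 12 tissues (grey). In each of the 12 the 6 neural points lie above the 24 grey points, and the grey points spread most for Kif1a, from -2.48 to 1.88.

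Both members that carry a microRNA host name lay high in the eye. The Mir124a-1hg transcript (A930011O12Rik), the member with the largest gap, measured 3.69 and 3.41 in cortex, 3.73 and 3.62 in cerebellum and 3.90 and 4.03 in eyes. The other arrays ran from -1.15 to 0.01 with a median of -0.74. Mir124-2hg (2610100L16Rik) measured 5.31 and 5.17 in cerebellum, 6.94 and 7.04 in eyes and 5.40 ± 0.57 (SD, n = 2) in cortex. It was also detected on both kidney arrays, at 2.70 and 2.95, while the remaining 22 arrays stayed at or below 0.16. Both transcripts are known hosts of miR-124, a neuronal microRNA. The arrays read the host transcripts and not the mature microRNA.

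The members known to act on RNA numbered 8, and their neural difference ran from 1.13 to 5.11. Srrm3 (2900083I11Rik) measured 4.89 and 5.10 in cortex, 5.31 and 5.43 in cerebellum and 5.28 and 5.39 in eyes, against -0.46 to 1.71 elsewhere with a median of -0.22. Its relative Srrm4 (1500001A10Rik) measured 4.22 and 3.98, 4.22 and 3.92, and 3.86 and 4.45 in the same order. Its other arrays had a median of -0.70, but both heart arrays stood out at 2.59 and 2.68 and the liver arrays followed at 1.39 and 0.66. The 2 relatives were therefore level across the neural tissues and differed in the tissue that came next, the large intestine for Srrm3 and the heart for Srrm4. Khdrbs2, a splicing regulator of neurons, lay 2.15 higher in the neural tissues, with 1.66 to 2.74 on the neural arrays and at most 0.68 elsewhere. It was detected on 11 of the 24 other arrays. Drosha, which cuts microRNA precursors from their host transcripts, lay 1.58 higher and was detected on all 30 arrays. Ilf2 (1.91), the splicing-associated Pnn (1.48), Cstf2t (1.56) and Bclaf1 (1.13) were likewise detected on every array.

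Members with a role in excitability included Unc80, Shisa9 (2700045P11Rik), an auxiliary protein of glutamate receptors, the potassium channel Kcnb2 and the acid-sensing channel family member Asic4 (Accn4). Of the 24 other arrays, Unc80 was detected on 0, Kcnb2 on 1 and Shisa9 and Asic4 on 5 each, so their differences from those tissues rest mostly on arrays at background. Kcnb2 measured 2.15 and 1.37 in cortex, 0.94 and 1.14 in cerebellum and 0.72 and 1.05 in eyes, and at most 0.41 elsewhere. Asic4 lay between 0.72 and 1.10 on the neural arrays and reached 0.41 in muscle. Both channels were separated from the other tissues by a small margin, 0.72 against 0.41 on the nearest arrays.

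Adhesion and matrix members ranged from 1.52 to 5.24 in their neural difference. The adhesion receptor Adgrb3 (Bai3) measured 4.40 to 5.62 on the neural arrays and at most 1.20 elsewhere, on a large intestine array. The cadherin Cdh20 lay 5.24 higher, and both its heart arrays (up to 1.86) stood above the median of the other tissues, 0.15. Cadm2 (2900078E11Rik), a synaptic cell adhesion molecule, lay 2.57 higher, and Tnr, a matrix protein of the nervous system, 1.52. Of the 24 other arrays, Cadm2 was detected on 2, Tnr on 4, Adgrb3 on 5 and Cdh20 on 6, so these differences too are set mostly against arrays at background. C1ql2, a secreted synaptic protein, measured 3.70 and 2.80 in cortex, 2.41 and 2.67 in cerebellum and 3.80 and 3.94 in eyes, with at most 0.82 elsewhere.

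Transport and cytoskeleton members were led by Kif1a, the kinesin that carries synaptic vesicle precursors. It measured 5.51 and 5.42 in cortex, 5.27 and 5.45 in cerebellum and 4.58 and 4.85 in eyes, and from -2.48 to 1.88 elsewhere. Septin3 (Sept3), a septin of neurons, lay 2.90 higher, and Abi2, an actin regulator, 3.20. Septin3 was detected on 10 of the 24 other arrays and Abi2 on all 24. Among signalling members the regulators of G-protein signalling Rgs8 and Rgs20 lay 4.73 and 2.07 higher, although they were detected on only 3 and 2 of the 24 other arrays. Rgs8 was nearly level, with 4.55 and 4.47 in cortex, 4.85 and 4.93 in cerebellum and 4.57 and 4.64 in eyes, and its highest other array was large intestine at 0.77.

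The spread of the members within the neural tissues is given without a count over all probes. The range over the cortex, cerebellum and eye means was below 1 for 69 members, had a median of 0.73 and exceeded 2 for 8. The highest mean was in cortex for 49 members, in cerebellum for 31 and in eyes for 20, or for 12 with median centring. The eye mean lay below both brain regions for 58 members, between them for 22 and above both for 20. The rule takes the lowest of these tissues, and its eye condition bounds how far the eye may fall. These counts are therefore a description, and nothing is read from them.

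Pdzph1 (2610034M16Rik) had the highest eye value relative to the brain, with a difference of 2.86 from the mean of the brain regions. It measured 5.25 and 5.36 in eyes, 3.42 and 3.30 in cortex and 1.63 and 1.40 in cerebellum. Its first fat array reached 1.82 against -0.01 on the second, so fat and cerebellum overlapped. Mir124-2hg followed at 1.67, and then Amer2 (2600011E07Rik) at 1.39, Plk5 (6330514A18Rik) at 1.32 and C1ql2 at 0.98. Amer2 and Amer3 (9430069J07Rik) are related proteins that bind APC in the Wnt pathway, and they stood at opposite ends. Amer2 measured 3.56 and 3.69 in cortex, 3.80 and 4.77 in cerebellum and 4.81 and 5.87 in eyes. Amer3 measured 3.68 and 3.57, 3.70 and 3.74, and 1.26 and 1.72, the lowest eye value relative to the brain at -2.18. The next lowest were 2810455O05Rik at -1.41, Ccsap (1700054N08Rik), a protein of centrioles and cilia, at -1.36, 2610316D01Rik at -1.27 and 1700016P03Rik at -1.24. The eye arrays of 1700016P03Rik were 1.05 and 2.90 and its cerebellum arrays 1.46 and 3.44, so its eye and cerebellum values overlapped, while its cortex arrays (3.73 and 4.25) lay above both.

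**Figure D4:**
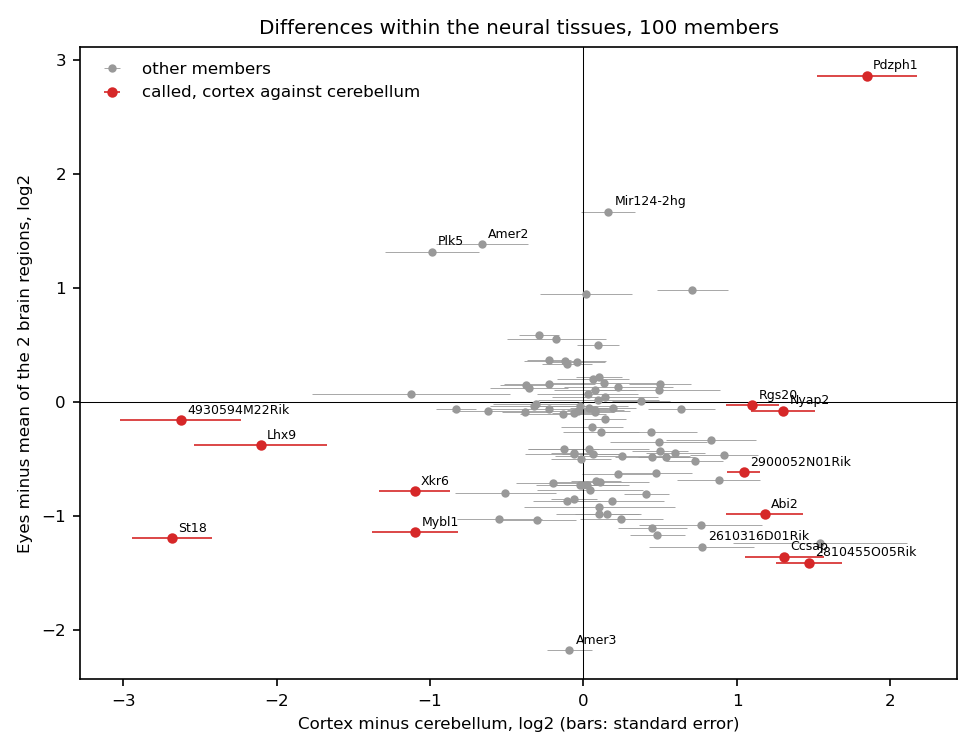
Each point is a member, with cortex minus cerebellum on the x axis (bars are the standard error of the limma fit) and eyes minus the mean of the brain regions on the y axis, both in log2. Red points are the 12 members called between cortex and cerebellum, and Pdzph1 (top) and Amer3 (bottom) mark the extremes of the eye.

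Cortex and cerebellum were compared because the rule treats the brain regions alike, so it does not choose which of them is higher. It does limit how far the lower region can fall, so the contrast is not wholly independent of it. A probe was called where limma gave a Benjamini-Hochberg adjusted p below 0.05 over all 21019 probes and a difference of at least 1. Of the 100 members, 7 were higher in cortex, beside 3.2% of all probes, and 5 were higher in cerebellum, beside 2.27%, which makes 12 in either direction, beside 5.47%. On both arrays of cortex and of cerebellum, 94 and 99 of the members were detected, beside 64% and 71.9% of all probes of the value table. The median difference over the members was 0.07, beside 0.03 over all probes, and 86 members lay within 1 of no difference.

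St18, a zinc-finger transcription factor, was higher in cerebellum. It measured 5.72 and 5.45 there, 3.35 and 2.45 in cortex and 3.02 and 3.07 in eyes, a difference of -2.68 ± 0.26 (SE, adjusted p = 8.82e-07, limma). The transcript 4930594M22Rik, a long non-coding RNA in RefSeq, was higher in cerebellum by a similar size, at 5.04 and 4.49 against 2.53 and 1.76 in cortex (adjusted p = 0.000149, limma). Its eye arrays disagreed, at 4.01 and 2.58. The LIM homeobox factor Lhx9 measured 2.00 and 2.18 in cerebellum and 0.58 and -0.61 in cortex, a difference of -2.10 ± 0.43 (SE, adjusted p = 0.00308, limma). Its call was lost without the second cortex array (difference -1.51, adjusted p = 0.0933, limma), and its second cortex array overlapped the other tissues, whose highest array was the second bone array at -0.06. Xkr6 (2700008G24Rik) differed by -1.10, and by -0.59 without the second cortex array, where its call was lost (adjusted p = 0.11, limma). It was also lost without the first cerebellum array (adjusted p = 0.0517, limma), and with only the arrays compared (adjusted p = 0.058), and with slide as a fixed block the difference was -0.59. Mybl1, a Myb family transcription factor, differed by -1.10 with an adjusted p of 0.0154 in limma, and its call was lost when any of the 4 arrays was left out (adjusted p = 0.082 to 0.0988, limma), with median centring (-0.92, adjusted p = 0.126) and with the value table (adjusted p = 0.109). Tfap2d (Tcfap2d), an AP-2 family transcription factor, differed by -0.83 and so was below the size limit.

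In the other direction, Pdzph1 was higher in cortex by 1.85 ± 0.33 (SE, adjusted p = 0.000809, limma). The clone 2810455O05Rik measured 2.87 and 2.72 in cortex against 1.51 and 1.15 in cerebellum, a difference of 1.47 (adjusted p = 9.59e-05, limma). Ccsap measured 2.41 and 2.19 against 0.99 and 0.99, a difference of 1.31. Nyap2 (9430031J16Rik), a phosphoprotein that links to PI3-kinase signalling in neurons, measured 3.24 and 2.99 against 1.62 and 2.01, a difference of 1.30 (adjusted p = 0.000279, limma) that was 0.69 with Cy3 alone. Abi2 measured 2.70 and 2.74 against 1.63 and 1.45 and lost its call without the second cerebellum array (adjusted p = 0.0543, limma), with median centring (adjusted p = 0.0635) and with the value table (adjusted p = 0.0515). The remaining members called were Rgs20, at 2.25 and 2.16 against 1.07 and 1.14, and the long non-coding 2900052N01Rik, at 1.91 and 1.91 against 0.93 and 0.79. The difference of 2900052N01Rik, 1.05, fell below the size limit of 1 without the second cerebellum array (0.97), with median centring (0.95) and with Cy3 alone (0.89), and that of Rgs20 lay just under it with Cy3 alone. In these 7 members the arrays of cortex and cerebellum did not overlap. The first cortex array and both cerebellum arrays shared a slide, and within that slide the median member differed by 0.18, beside 0.02 over all probes. Leaving out the second cortex array leaves 1 cortex array, and the numbers of members called in each direction then changed. With the scanner's processed signals in place of normexp and loess, 8 of the 12 calls were lost with the direction kept: St18 (-2.15, adjusted p = 0.0816, limma), Lhx9, Mybl1, Pdzph1 (1.24, adjusted p = 0.693), 2810455O05Rik, Ccsap, Nyap2 and Abi2. With the authors' value table, Pdzph1 (adjusted p = 0.63, limma), Lhx9 (adjusted p = 0.137) and Ccsap (adjusted p = 0.0682) lost their calls beside Mybl1 and Abi2.

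The hollow organs (stomach, small intestine, large intestine and bladder) have a nerve supply within their walls and were compared with the 8 solid tissues (lung, liver, heart, kidney, muscle, skin, fat and bone). The rule used the highest of these 12 tissues, which bounds each member from above in all of them, so the contrast is not wholly independent of it. Some members were not detected in these tissues (9 on none of the 24 arrays) and were tested only because of their neural signal. The shares of all probes are therefore printed beside the counts and nothing is read from them. Of the 100 members, 5 were higher in the hollow organs, beside 8.18% of all probes, and 2 were higher in the solid tissues, beside 5.03%, which makes 7 in either direction, beside 13.2%. With processed signals 12 members were higher in the hollow organs, and the count over all probes was 2492 in place of 1719. In the solid tissues the count of members was 7 with slide as a fixed block, and that over all probes was 2035 with processed signals and 2357 with the slide block, in place of 1058. The median difference was 0.00 over the members and -0.04 over all probes.

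The largest difference was that of Trnp1 (2300002D11Rik), a nuclear regulator of neural progenitors, at 2.82 ± 0.15 (SE, adjusted p = 2.88e-11, limma). It reached 3.62 and 3.77 in bladder and 2.68 and 3.06 in large intestine, and read -2.91 and -2.83 in liver, while skin at 2.08 and 1.85 overlapped the hollow organs. The lung arrays (0.90 and 0.85) and the first fat array (1.38) also lay above its first small intestine array, 0.64. Kif1a was higher by 2.43 ± 0.14 (SE, adjusted p = 5.3e-11, limma). Its arrays read 1.56 and 1.82 in stomach, -0.29 and 0.18 in small intestine, 1.29 and 1.88 in large intestine and 1.33 and 1.51 in bladder. In the solid tissues it ran from -2.48 in liver to 0.92 in lung, so only the small intestine overlapped them. Vat1l (AI427515) was higher by 2.16 ± 0.28 (SE, adjusted p = 2.9e-06, limma), reading 2.06 and 0.53 in large intestine and 0.66 and 0.59 in stomach. Its bladder arrays (-0.65 and -1.82) lay among the solid tissues, and its first small intestine array (-0.25) lay below skin (-0.10 and -0.11), the second fat array (0.03) and the second bone array (-0.12). The clone 6330403K07Rik was higher by 2.10 (adjusted p = 1.27e-07, limma) and read 2.99 on the first large intestine array, but its lung arrays (2.18 and 1.85) and first fat array (2.28, against -0.28 on the second) lay in the same range. Srrm3 was higher by 1.10 ± 0.07 (SE, adjusted p = 5.71e-10, limma). It read 1.40 and 1.24 in stomach, 0.87 and 1.10 in small intestine and 1.07 and 1.71 in large intestine, against -0.36 and -0.19 in bladder and at most 0.10 in the solid tissues, where it was detected on 6 of 16 arrays, so the difference is set against values largely at background. Its difference therefore came from the gut and not from the bladder, and it fell below the size limit of 1 (to 0.98) without the fat, bone and large intestine arrays to 0.92 without those of fat and large intestine, to 0.89 with Cy3 alone and to 0.78 with median centring, while it was 2.34 with processed signals. In the same organs the median of the 7 neuron markers was 1.34 in large intestine, 0.29 in stomach, 0.12 in small intestine and 0.06 in bladder, and -0.14 to 0.08 in the solid tissues. Of those markers Scg2, Rims1 and Kif1a itself were called higher in the hollow organs, as were 2 of 5 glial (Gpr37l1 and Mt3) and 2 of 5 keratinocyte markers and 0 of 6 leukocyte markers. Of 6 skeletal muscle markers, 5 were called higher in the solid tissues, with medians of 4.01 in muscle, 3.51 in skin and 4.29 in bone. Of 2 Schwann cell markers 0 were called in either direction, with medians of 2.37 in skin, 2.12 in muscle and 1.22 in bladder and of 0.20 to 1.05 in the other 9 of these tissues. Their part in these member values was not tested.

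Ogfrl1 and Tmem184c (Tmem34) were lower in the hollow organs. Ogfrl1 read between -1.76 and -0.46 in the gut, 0.49 and 0.68 in bladder and 0.04 to 1.75 in the solid tissues, a difference of -1.30 ± 0.15 (SE, adjusted p = 6.94e-07, limma). Tmem184c read between -3.27 and -1.87 in the gut and -0.68 and -0.60 in bladder, a difference of -1.37 ± 0.14 (SE, adjusted p = 1.28e-07, limma). In both the gut arrays lay below all solid tissues and the bladder arrays lay among them.

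**Figure D5:**
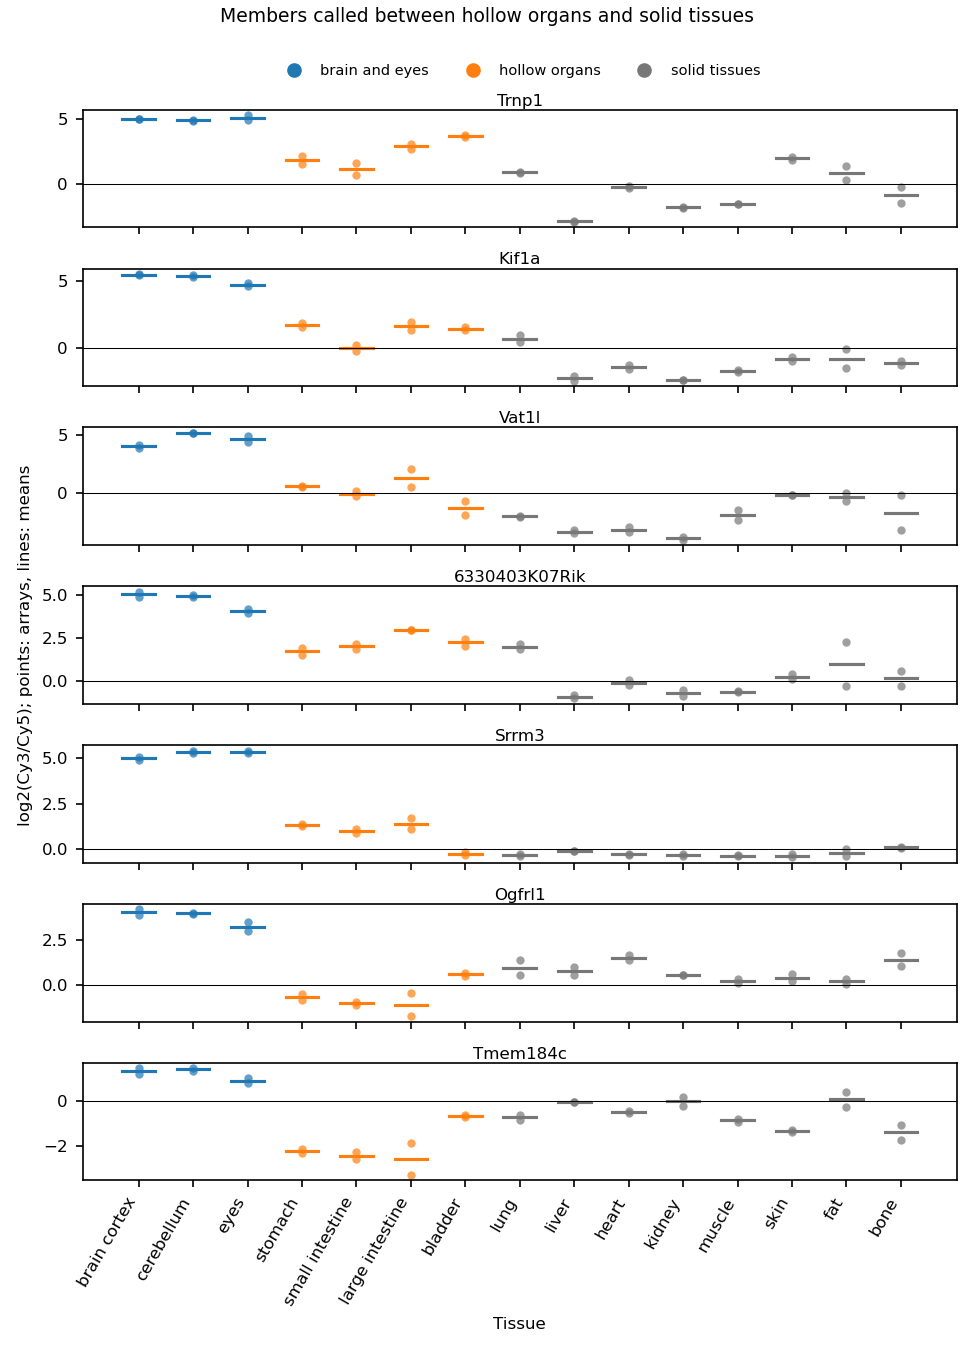
Log2(Cy3/Cy5) of the 7 members called between hollow organs and solid tissues, with 1 point per array and a line at each tissue mean, for brain and eyes (blue), hollow organs (orange) and solid tissues (grey). Srrm3 stands above 0 in the 3 gut tissues and near 0 in bladder, while Ogfrl1 and Tmem184c are lowest in the gut.

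Some members pointed to single arrays. Of the 13 members whose neural and other arrays overlapped, 5 had their highest other value on the first fat array: Pdzph1, Fam184b (9630031F12Rik), Erich6 (4932431H17Rik), 2610316D01Rik and Fam228a (4930417G10Rik). Erich6 read 2.51 on that array and 0.00 on the second fat array, above its neural range of 0.60 to 1.48. Across the members, 14 were higher by more than 1 on the first fat array than on the second and 3 were lower by as much. The large intestine arrays lay more than 1 apart for 23 members and the bone arrays for 5. No count over all probes stands beside these. Rimklb (4933426K21Rik) overlapped on the second bone array, and Lhx9 and Mybl1 on the second bone and second fat arrays. The value of AI593442 on the first cerebellum array was removed as an outlier spot, so its cerebellum mean rests on 1 array.

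Lists of neuronal genes set the members beside others of their pathways. Of 20 genes of synaptic and dense-core vesicles tested, 1 was a member (Septin3), 2 were called higher in cortex and 1 in cerebellum, and 4 were higher in the hollow organs and 0 in the solid tissues. Those 4 were Scg2 (4.29) and Resp18 (2.83) of dense-core granules, Sept5 (2.54) and the presynaptic Rims1 (2.11). Of 27 ion channel and receptor genes, 2 were members (Kcnb2 and Asic4), 3 were higher in cortex (Kcnq5, Adora2a and Kcnt2, by 2.32 to 2.86), 0 in cerebellum, 4 in the hollow organs and 0 in the solid tissues. Of 22 adhesion and axon guidance genes, 3 were members (Adgrb3, Cdh20 and Tnr), 1 was higher in cortex (the ephrin receptor Epha4, by 2.93), 0 in cerebellum, 2 in the hollow organs (Dner and Astn1) and 0 in the solid tissues. None of the members on these 3 lists was called in either comparison. Of 19 cytoskeleton and transport genes, 2 were members (Kif1a and Abi2), 3 were higher in cortex, 0 in cerebellum, 1 in the hollow organs and 3 in the solid tissues. Of 28 signalling genes, 3 were members (Sphkap, Rgs8 and Rgs20), 4 were higher in cortex, 1 in cerebellum (Homer3, with a difference of -1.60), 5 in the hollow organs and 0 in the solid tissues. Of 20 RNA-binding and transcription factor genes, 2 were members (Lhx9 and St18), 4 were higher in cortex and 4 in cerebellum, 2 in the hollow organs and 3 in the solid tissues. The share of all probes called in each direction is given above, and no list was tested as a set.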

How the data were processed

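RNA of 15 mouse tissues was hybridized against a common reference, with 2 arrays per tissue, 30 in all, on 11 slides scanned on 5 days. The authors extracted the spots with Agilent software, and the deposited files hold mean and background intensity, processed intensity and flags, which are other kinds of value. The deposited value table is on a log10 scale, with column medians of 2.5 to 2.65. Centred on each probe, 87.8% of its values lay within 0.05 (log2) of the processed Cy3 over Cy5 ratio over 18594 probes, while the constant added to each probe stays unknown. It chose the members, and comparisons used the spot files.

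Spots were background-corrected in limma 3.58.1 under R 4.3.3 (normexp, offset 50), 475 outlier spots and all control spots were left out, and log2(Cy3/Cy5) was loess-normalized within arrays and averaged per probe. Of 25030 probes, 21019 were well above background in Cy3 on both arrays of at least 1 tissue and were fitted with 1 coefficient per tissue over 30 arrays (lmFit and eBayes). Cortex was contrasted with cerebellum and 4 hollow organs with 8 solid tissues. The contrast of neural tissues with the other 12, which chose the members, and that of eyes with brain were not tested for them. The fit was tested on simulated data. P-values measure the spread between arrays.

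The members, gene lists and named genes were chosen with earlier results of these data known. The rule named the 12 largest gaps, in each direction up to 5 members called between cortex and cerebellum and up to 3 between hollow organs and solid tissues, the 5 highest and 5 lowest in eyes against brain, members in a gene list, and the probes at the limit. The other called members, Ptbp1, members with overlapping arrays and members described by role were named after their values were seen. Older symbols were updated through RefSeq: 44 members already had the current symbol, 44 matched a newer one and 12 were in no record. Of the 44 matches AI851716 was not used and keeps its listed name, because its newer symbol is also that of another probe. Authors' comparison columns were not used. Alternatives were another centring, the processed signals, the value table, Cy3 alone, other filters, slide, scan day or replicate number as a block, only the arrays compared, all probes, and each array left out. Promoter sequences are RefSeq's (GRCm38.p6). No sequence of miR-124 was used here.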

Additional observations from a re-analysis of the deposited data

How the results depend on the processing

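Of 686 recomputed values, 458 were differences of called members, and the others included counts, which have no direction. Of the 458, 0 changed direction, but these members had been called for a difference of at least 1. Alternatives that change only the filter or the probes tested also leave the estimate as it was. Of the same 458, 24 lost the call by adjusted p. Another 14 kept the adjusted p but fell under the size limit of 1, and the other 420 kept the call. With the processed signals the members called were 2 higher in cortex, 2 in cerebellum and 12 in the hollow organs, and with the value table of the authors they were, in that order, 4, 3 and 11. Over all probes, 466 and 510 were higher in cerebellum with the processed signals and the value table, against 477. With processed signals Rgs20 and 2900052N01Rik kept their cortex calls. With median centring 5 were higher in cortex and 3 in cerebellum. With slide as a fixed block, chosen after seeing the data, 11 were higher in cortex and 7 in the solid tissues. The cortex counts of these settings have no count over all probes beside them, so nothing is read from them. Leaving out an array of cortex or cerebellum leaves 1 array of that region. Over all probes, fewer were then called in each direction of that comparison than with all arrays. Nothing is therefore read from the cortex and cerebellum member counts of those fits. Leaving out 1 array at a time gave 6 to 11 members higher in cortex, 2 to 4 in cerebellum, 5 to 5 in the hollow organs and 2 to 3 in the solid tissues. Over all probes, 2492 and 2451 were higher in the hollow organs with processed signals and the value table, against 1719, and 308 were higher in cerebellum with median centring, against 477, and 2035, 1949 and 2357 were higher in the solid tissues with processed signals, the value table and the slide block, against 1058. The median difference of the members between the neural tissues and the other 12 was 2.93 with processed signals, 2.91 with the value table and 1.96 with Cy3 alone. The number highest in eyes was 12 with median centring, against 20. Applied to other values, the rule kept 91 members with processed signals, 86 with loess ratios, 75 with median centring and 68 with Cy3 alone. The causes were not tested. Dim probes limit the differences, since 9 members had no detected array outside the neural tissues.

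The replicate numbers are tied to nothing in the labels. Deviations of same-numbered arrays correlated between -0.25 and 0.34 over 105 tissue pairs, with 33 pairs over 0.1. With the replicate block, 7 members were higher in cortex, 5 in cerebellum, 5 in the hollow organs and 2 in the solid tissues.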

Other observations

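Ptbp1, a splicing repressor that is a known target of miR-124 and is no member, was looked up after the members were seen. Its probe read -3.03 and -3.07 in cortex, -2.78 and -2.45 in cerebellum and -2.00 and -2.35 in eyes. The other 24 arrays ran from -2.17 in heart to 0.32 in large intestine with a median of -1.15. The neural tissues lay lower by 1.47 ± 0.12 (SE, adjusted p = 4.51e-09, limma, over all 21019 probes), beside 12.8% of all probes called lower there. The eye arrays overlapped those of heart and muscle, and the cortex arrays were the lowest of all. A link of these values to miR-124 was not tested.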
